A study of Zea mays with 6 samples.

Results

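Class B and B-sister MADS-box genes were followed in the early ear of 2 maize lines. The members are the genes of the deposited count table whose best Swiss-Prot match is named MADS-box transcription factor 2, 4, 16 or 29, all of them rice proteins. This gave 5 of the 42508 genes listed. By name, 1 is of the APETALA3 type (MADS16), 3 are of the PISTILLATA type (MADS2, with 2 genes, and MADS4, with 1) and 1 is B-sister (MADS29). A name here is a similarity match, and the files pair no maize symbol with these identifiers.

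Both lines are nearly isogenic recombinant inbred lines bred from teosinte, the wild progenitor of the crop, and maize. In A12 the chromosome 5 locus qKRN5.04b, which affects the number of kernel rows, comes from teosinte. In B46 that segment is the maize one. Ears of 1.5 to 2.0 mm were dissected from plants with 6 to 9 leaves grown under standard conditions, at the stage between inflorescence meristem and spikelet pair meristem. Each line has 3 libraries of polyadenylated RNA, each from a pool of at least 50 ears, in a single stated batch. Pools average over plants, so plant-to-plant differences are not visible, and each genotype is represented by 1 line. The p-values therefore measure the spread between these pools, which may be technical.

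In flowers, class B factors act with neighbouring classes to set organ identity. An APETALA3-type and a PISTILLATA-type protein bind DNA as a heterodimer, and neither works alone in this role. In grasses the pair specifies stamens and lodicules, the small organs that push the floret open. In maize, loss of the APETALA3-type gene Silky1 turns stamens into carpel-like organs. Grasses hold several PISTILLATA-type copies, and in rice MADS2 and MADS4 share the work in stamens. B-sister genes are the closest relatives of class B and act in ovule and seed. In rice, MADS29 is needed for the breakdown of maternal tissue in the young seed.

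Total counts were 14625831 to 15675012 per library, and 26626 to 27791 genes had a count. Expression levels are given as CPM, read counts scaled to a common library size. The correlation of log2 CPM across genes (not independent replicates) ranged from 0.937 to 0.989 for libraries of the same line and from 0.906 to 0.940 across lines. A12 replicates 1 and 2 were the least alike within a line. The ear label was checked against meristem markers: KNOTTED 1 (Zm00004b005000), a homeobox factor of meristem cells, had a mean of 507 ± 57.0 CPM over B46 and 429 ± 132 CPM over A12 libraries (SD, n = 3). Of 6 listed ear meristem genes, 4 were tested, all 4 had a log2 fold change below 0 (median -0.32), and 1 was called lower in A12. Over all 22741 genes tested, 11652 had a log2 fold change above 0, and 5.25% were called lower. Of 41 anther and pollen genes, 30 had no read in any library, and their summed level was 0.388 to 0.510 CPM in B46 and 0.139 to 1.16 in A12. In bulk samples, fewer cells of a type and less RNA per cell cannot be told apart.

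The comparison asks how the class B and B-sister genes differ between ears that carry either form of the segment. The APETALA3-type gene and both PISTILLATA-type genes of chromosome 8 were near 0 in B46 and higher in every A12 library. The lowest of these A12 values was 0.974 CPM, for the chromosome 8 gene Zm00004b026163 in replicate 2. The PISTILLATA-type gene of chromosome 3 was present in both lines and higher in A12. The B-sister gene was close to the detection limit in both. None of the 5 genes lies on chromosome 5, where the lines are stated to differ.

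**Figure D1:**
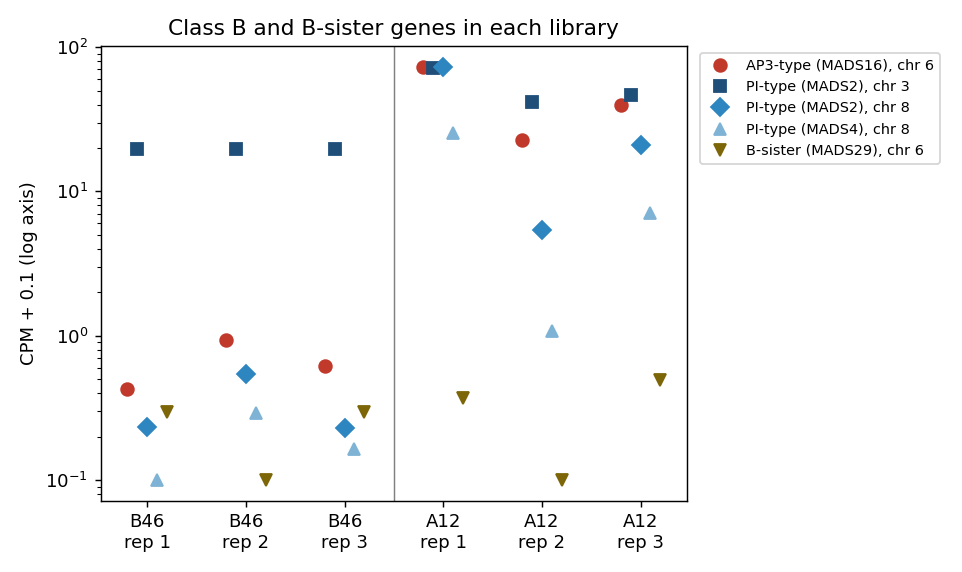
CPM plus 0.1 on a log axis for each of the 5 genes in the 3 B46 and 3 A12 libraries, 1 point per library. The chromosome 3 PISTILLATA-type gene sits near 19.6 CPM in all B46 libraries, while the other class B genes rise from under 1 CPM to between 0.974 and 73.1 CPM in A12.

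Zm00004b029254 is the APETALA3-type gene, which codes for one partner of the class B heterodimer. It lies on chromosome 6 from 84104461 to 84109145, on the plus strand in the table's coordinates, and carries the SRF-type DNA-binding domain and the K-box, through which such proteins pair. It had 5, 13 and 8 reads in B46 replicates 1, 2 and 3, and 1073, 325 and 610 in A12 replicates 1, 2 and 3. All A12 libraries lay above all B46 libraries, and A12 replicate 1 held the most. The means were 0.558 ± 0.253 CPM in B46 and 45.1 ± 25.7 in A12 (SD, n = 3), and the log2 fold change was 6.31 (A12 minus B46; SE 0.57; edgeR quasi-likelihood test, adjusted p = 0.0018). This rise was called, that is, had an adjusted p under 0.05, in each of the 14 alternative analyses.

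Zm00004b018236 is a PISTILLATA-type gene named for MADS2, on chromosome 3 from 174952923 to 174955583 (plus strand), with the DNA-binding domain and the K-box. B46 libraries had 301, 306 and 304 reads, and A12 libraries had 1051, 601 and 716. B46 libraries were nearly equal, at 19.7, 19.5 and 19.6 CPM, whereas in A12 the highest was 1.71 times the lowest. Its mean level rose from 19.6 ± 0.101 CPM in B46 to 53.3 ± 16.05 in A12 (SD, n = 3, log2 fold change 1.44 with SE 0.20, adjusted p = 0.0078 by edgeR). Without B46 replicate 2, the adjusted p was 0.0548.

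The remaining PISTILLATA-type genes are neighbours on chromosome 8, both on the plus strand and 22068 bases apart. Zm00004b026164, named for MADS2, lies from 104537714 to 104541516, and its annotation lists the DNA-binding domain but no K-box. It had 2, 7 and 2 reads in the B46 libraries and 1067, 76 and 323 in those of A12. The lines did not overlap, but A12 replicate 1 exceeded A12 replicate 2 by 13.8 times in CPM. The means were 0.235 ± 0.183 and 33.0 ± 35.3 CPM (SD, n = 3), and the log2 fold change was 7.07 (SE 1.21; adjusted p = 0.015 in edgeR). Its last 426 bases overlap the minus-strand gene Zm00004b026165, a receptor-like kinase with 132 to 168 reads per library (log2 fold change 0.18, adjusted p = 0.51 in edgeR). No source states whether counting used strand, so reads from that overlap cannot be told apart.

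Zm00004b026163, named for MADS4, lies from 104512623 to 104515645 and carries both domains. It had 0, 3 and 1 reads in the B46 libraries and 372, 14 and 107 in those of A12. The lowest A12 library still lay above the highest B46 library, although at 14 reads against 3. The means were 0.0853 ± 0.0973 and 11.1 ± 12.7 CPM (SD, n = 3), with an SD above the mean in both lines, and the log2 fold change was 6.88 (SE 1.45; adjusted p = 0.029 in edgeR). Both chromosome 8 calls depended on which libraries were kept. Zm00004b026164 and Zm00004b026163 stayed called without A12 replicate 1 (adjusted p = 0.0035 and 0.0150 in edgeR). They did so without A12 replicate 2 as well (0.0040 and 0.0068). Both calls were lost without A12 replicate 3 or any of the B46 replicates. Those fits called 401, 714, 432 and 1410 genes over the whole table, against 2242. With the replicate number as a block, 967 genes were called and both calls stayed (adjusted p = 0.0225 and 0.0422 in edgeR). The reason for the losses was not tested. Without A12 replicate 3, or B46 replicate 1, 2 or 3, the adjusted p of Zm00004b026164 was 0.0541, 0.0701, 0.0767 and 0.0577, and that of Zm00004b026163 was 0.0823, 0.111, 0.116 and 0.0890. Without A12 replicate 1, the log2 fold changes were smaller, at 5.75 and 5.40 in the same order. Without B46 replicate 2 they were larger, at 7.89 and 8.08. Reads of such similar copies can also be split between them.

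Zm00004b029410 is the B-sister gene, on chromosome 6 from 92272122 to 92274184 (minus strand), annotated with the DNA-binding domain alone. It had 3, 0 and 3 reads in the B46 libraries and 4, 0 and 6 in those of A12. The values of the lines overlap, and no difference was detectable at this depth, where a count of 0 allows up to 0.191 to 0.205 CPM (3 counts per library, counting error only). It did not pass the expression filter and was not tested there. With every gene of at least 1 count kept, its log2 fold change was 0.74 (SE 1.21; adjusted p = 0.74 in edgeR). B-sister names outside the rule were as low. The gene annotated as maize ZMM17 (Zm00004b012971) had 0 reads in the B46 libraries and 10, 0 and 3 in those of A12, and the gene annotated as FBP24 (Zm00004b029780) had 2, 0 and 0 reads in B46 and none in A12. The other 8, named for MADS31, had at most 4 reads in a library.

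Of the 5 genes, 4 passed the filter, and these 4 were called higher in A12 and 0 lower. Over all 22741 genes tested, 9.86% were called, 4.61% as higher and 5.25% as lower. The lines did not overlap, with A12 above B46, for the same 4 genes and for 16.2% of all genes tested. The APETALA3-type gene and the chromosome 8 genes passed the filter through their A12 libraries, so a difference was built into their being tested, and the count is given as a description. Without the filter, 5 members were tested and 4 called, against 3.26% of genes called as higher. Ordered by log2 fold change among all genes tested, Zm00004b026164, Zm00004b026163, Zm00004b029254 and Zm00004b018236 stood at ranks 14, 17, 22 and 636 from the highest. The first 3 had 11, 4 and 26 reads in total over the B46 libraries. Their fold sizes therefore depended on how values near 0 were treated. With a pseudocount of 1 on FPKM, their log2 differences were 3.56, 2.56 and 4.43, against 7.07, 6.88 and 6.31 in edgeR. By DESeq2, all 4 were called higher as well, with adjusted p = 2.3e-04 at most, against 7.64% of genes.

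Levels of different genes were compared per length, as FPKM (reads corrected for gene length and depth). In B46 the chromosome 3 PISTILLATA-type gene stood alone at 14.5 ± 0.0691 FPKM (SD, n = 3). The APETALA3-type gene followed at 0.399 ± 0.181. The B-sister gene at 0.152 ± 0.131, Zm00004b026164 at 0.138 ± 0.107 and Zm00004b026163 at 0.0681 ± 0.0777 did not differ beyond their spread.

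In A12 the order of the means was the chromosome 3 gene at 39.4 ± 12.003 FPKM, the APETALA3-type gene at 32.3 ± 18.5, Zm00004b026164 at 19.4 ± 20.9, Zm00004b026163 at 8.87 ± 10.2 and the B-sister gene at 0.258 ± 0.233 (SD, n = 3). Neighbours in that order did not differ beyond the spread between libraries, although every library of Zm00004b026163 lay above those of the B-sister gene. Within each A12 library the same order nevertheless held. In replicate 1 the first 3 genes were close together, at 53.1, 52.5 and 42.9 FPKM, whereas in replicate 2 they were at 30.9, 16.2 and 3.11.

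The make-up of the PISTILLATA-type transcripts was then compared between lines. In B46, reads of the chromosome 8 genes were 0.660%, 3.16% and 0.977% of all PISTILLATA-type reads in replicates 1, 2 and 3 (exact 95% binomial intervals 0.0800 to 2.36, 1.53 to 5.74 and 0.202 to 2.83%). These intervals cover counting error only and treat reads as independent molecules, whereas the libraries of a line differed beyond sampling noise. In A12 they were 57.8%, 13.02% and 37.5% (55.8 to 59.7, 10.6 to 15.8 and 34.7 to 40.4%). The chromosome 3 gene thus supplied nearly all PISTILLATA-type reads in B46 and a varying part in A12, with no overlap between lines. The mean share was 1.60 ± 1.36% in B46 and 36.1 ± 22.4% in A12 (SD, n = 3; exact two-sided permutation test p = 0.1, the smallest p that 3 against 3 allows). On FPKM the shares were 1.40 ± 1.23% and 33.3 ± 21.6%. The permutation p followed from the lack of overlap between lines. The chromosome 8 genes were near 0 in B46, so the share restates their larger rise. It was added after the values were seen and is a description.

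The balance of the heterodimer partners was read in the same way. Summed over 3 copies, PISTILLATA-type transcripts were at 14.6, 14.8 and 14.6 FPKM in B46 and 116, 34.8 and 52.0 in A12. The APETALA3-type level was 1.60%, 3.999% and 2.53% of that sum in B46. In A12 it was 45.1%, 46.5% and 54.3%. The sum varied widely among A12 libraries, while the ratio of the partners stayed in a narrow range there. The mean ratio was 2.71 ± 1.21% in B46 and 48.6 ± 4.92% in A12 (SD, n = 3). An exact two-sided permutation test gave p = 0.1, again the smallest possible, which followed from the lack of overlap between lines. The APETALA3-type gene was near 0 in B46, so the difference in ratio restates its larger rise and is a description.

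**Figure D2:**
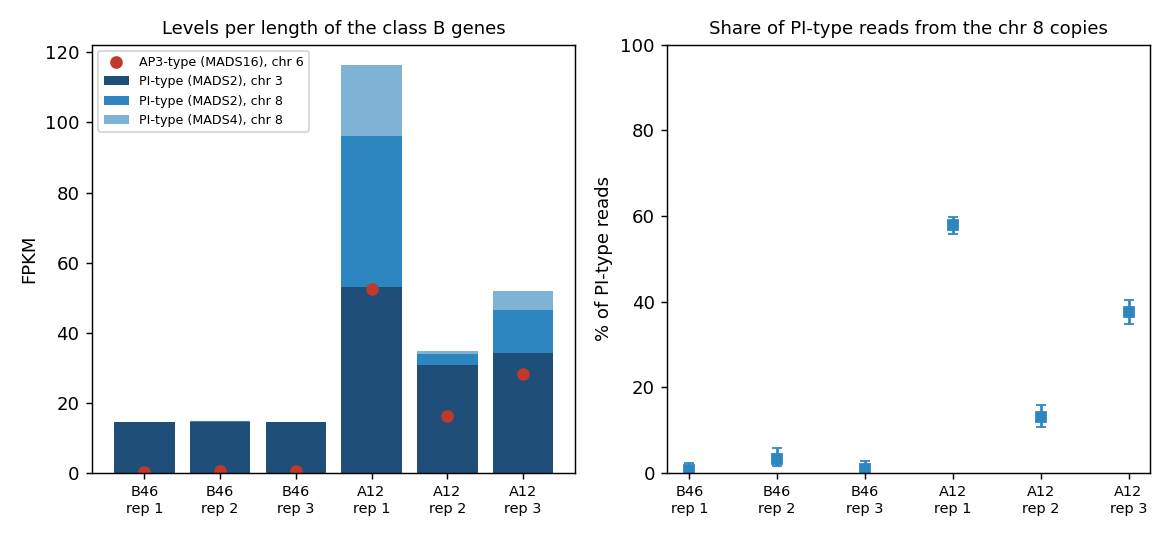
Left, FPKM of the 3 PISTILLATA-type copies as stacked bars and of the APETALA3-type gene as points, per library. Right, the share of PISTILLATA-type reads from both chromosome 8 copies with exact 95% binomial intervals for counting error only, which is at most 3.16% in B46 and 13.02% to 57.8% in A12.

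The A12 libraries did not carry equal amounts of class B transcript. All 4 tested genes were highest in A12 replicate 1, intermediate in replicate 3 and lowest in replicate 2, an order seen in 28.5% of all genes tested and in 35.7% of genes called higher in A12. It was also the order of 7 of 8 tested class E genes, 4 of 5 class C and D genes and 2 of 2 AGL6-class genes, with a median replicate 1 to replicate 2 ratio of 5.17, 8.33 and 2.21. Replicate 1 exceeded replicate 2 by 1.71 times for the chromosome 3 gene and 3.23 times for the APETALA3-type gene. The ratio was 13.8 for Zm00004b026164 and 26.0 for Zm00004b026163. The genes that were lowest in B46 thus spread most among A12 libraries.

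Green leaf genes followed the same order in A12. Over all genes tested, 28.5% had that order and 4.61% were called higher in A12. Of 71 leaf genes listed, 44 were tested, 41 of them in the order replicate 1, 3, 2, and 1 was called higher in A12. Their summed level was 712, 131 and 287 CPM in A12 replicates 1, 2 and 3, and 189, 217 and 282 CPM in the B46 replicates, and 11 had no read in any library. Zm00004b029254 was at 0.327, 0.829 and 0.517 CPM in B46 replicates 1, 2 and 3. It was at 73.1, 22.6 and 39.6 CPM in A12 replicates 1, 2 and 3. All 4 tested class B genes thus shared the order of the leaf sum among A12 libraries. KNOTTED 1 (Zm00004b005000) went the other way, with 4203 reads in A12 replicate 1 against 7847 and 6995 in replicates 2 and 3. The summed level of the ear meristem list was 690 to 1040 CPM in B46 and 455 to 812 in A12. The meristem gene called lower was annotated as RA3 (Zm00004b037360), which limits branching of the maize ear. It was at 181, 159 and 58.7 CPM in B46 and at 9.27, 37.2 and 27.5 CPM in A12 (log2 fold change -2.43 with SE 0.56, adjusted p = 0.039 by edgeR). It thus fell between lines while the class B genes rose, and its adjusted p was 0.142, 0.123 and 0.143 without A12 replicate 3, B46 replicate 1 and B46 replicate 2. The part of these leaf and meristem differences in the class B result was not tested. Over all genes tested, 10.4% were called higher without A12 replicate 1, against 4.61% with all libraries kept. All 4 tested class B genes were called higher in that fit. Their log2 fold changes were then 5.78 for Zm00004b029254, 1.17 for Zm00004b018236, 5.75 for Zm00004b026164 and 5.40 for Zm00004b026163. Seed genes had a summed level of 125 to 202 CPM in B46 and 95.4 to 117 in A12, with 30 of 48 at 0 in all libraries.

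**Figure D3:**
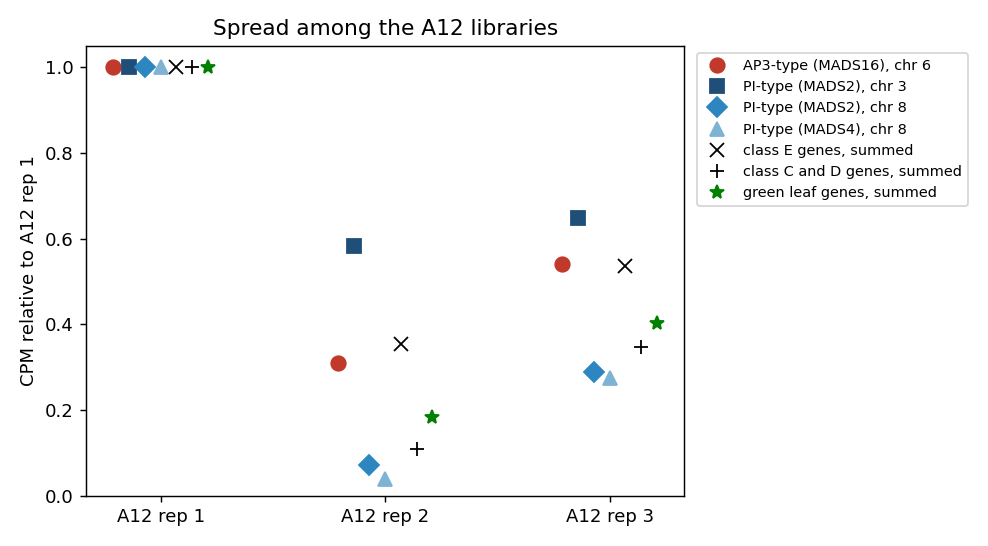
CPM in each A12 library relative to A12 replicate 1 for the 4 tested class B genes, and for the summed class E, class C and D, and green leaf genes. Both chromosome 8 genes fall furthest in replicate 2, by ratios of 13.8 and 26.0, and the chromosome 3 gene least, by 1.71.

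The other genes of the floral programme were read from the same test. Class C and D genes, which with class B specify stamens and set carpels and ovules, had 8 listed and 5 tested members, of which 4 rose, 0 fell and 1 was not called (median log2 fold change 6.49, or 6.31 with a gene at 0 in B46 taken at its bound). The genes annotated as MADS3, a stamen identity factor in rice, rose by 6.49 (Zm00004b015751, SE 1.11, adjusted p = 0.015 in edgeR) and 3.95 (Zm00004b025115, SE 0.75, adjusted p = 0.020 in edgeR). Their calls were lost without A12 replicate 3 or any B46 replicate, with adjusted p of 0.0518 to 0.0801 and 0.0581 to 0.0940. In each of these 4 analyses 0 class C and D genes were called, and 1 was called with a pseudocount of 1 on FPKM. Over all genes, 0.785% to 2.83% were called higher in these 4, and 3.93% with that pseudocount. The median over all genes tested was 0.01.

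Class E genes, whose products join class B and C proteins in larger complexes, had 8 tested members of 10, and 6 rose, 0 fell and 2 were not called (median 7.75). Without B46 replicate 2, 3 were called, and 4 were called without A12 replicate 3, B46 replicate 1 or B46 replicate 3. Over all genes tested, 0.785%, 0.8%, 1.17% and 2.83% were called higher in those fits, in the same order. The gene annotated as MADS5 (Zm00004b031849) rose from 8.22 ± 4.05 to 93.2 ± 9.13 CPM (SD, n = 3; adjusted p = 0.0032 in edgeR), with A12 libraries of 1501, 1208 and 1435 reads. It was thus nearly even among A12 libraries, with the other class E genes mostly uneven. The MADS1 gene Zm00004b034170, a regulator of floret organ identity, had 0, 14 and 0 reads in the B46 libraries and 1804, 376 and 885 in those of A12, and rose by 7.80 (SE 0.98, adjusted p = 0.0055 in edgeR). Both AGL6-class genes, which act in the floral meristem, rose (log2 fold changes 9.17 for Zm00004b022334 and 7.80 for Zm00004b014719; adjusted p = 0.0010 and 0.0013 in edgeR).

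Without A12 replicate 1, 1 gene of the AP1/FUL class was called higher and 3 lower, against 10.4% and 8.88% of all genes tested. With all libraries kept, 0 of this class, linked to the floral transition, rose, 1 fell and 6 were not called. These were 7 tested genes of 9 (median -0.22), and 4.61% and 5.25% of all genes tested rose and fell. The 1 that fell was MADS20 (Zm00004b038157, 28.7 ± 13.7 to 2.39 ± 1.16 CPM, SD, n = 3; adjusted p = 0.0059 in edgeR). By DESeq2, 2 fell, against 7.78% of all genes tested, the other being MADS14 (Zm00004b005152, DESeq2 adjusted p = 0.010). With counts scaled by library totals, 2 fell, against 6.63%. Of 2 SOC1-class genes, 0 were called by edgeR, DESeq2 or limma on FPKM, with 0 at an unadjusted p under 0.05.

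The SVP class, whose rice members restrain brassinosteroid responses, had 5 listed and 4 tested genes, and 0 rose and 4 fell (median -5.30). The pair of lowest adjusted p is annotated as MADS55. Zm00004b022967 had 1377, 1549 and 2715 reads in the B46 libraries and 39, 30 and 39 in those of A12 (log2 fold change -5.64 with SE 0.32, adjusted p = 0.00027 by edgeR). Zm00004b015192 had 723, 873 and 1431 reads in B46, compared with 9, 36 and 20 in A12 (log2 fold change -5.47 with SE 0.46, adjusted p = 0.0013 by edgeR). Over the 7 lists, 15 of 37 tested genes rose and 5 fell, where 4.61% and 5.25% of all genes tested did. The number that rose was 7, 7, 6 and 9 without A12 replicate 3 and B46 replicates 1, 2 and 3. Over all genes tested, 0.8%, 1.17%, 0.785% and 2.83% rose in those fits. Genes at or near 0 in B46 passed the filter through A12 here too.

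**Figure D4:**
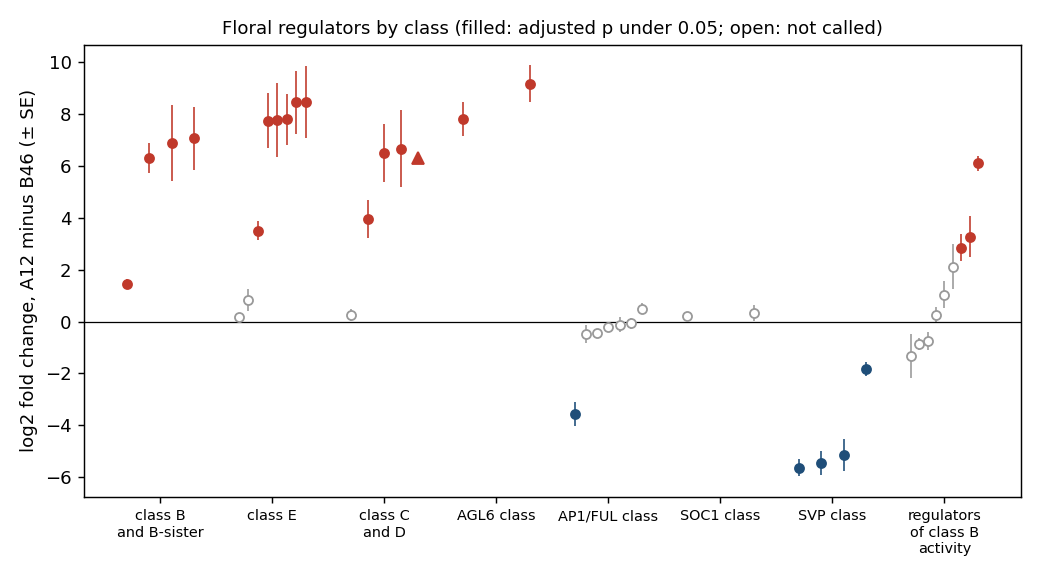
log2 fold change (A12 minus B46) with SE for each tested gene of the class B and B-sister set and of 7 lists of floral regulators. Filled circles have an edgeR adjusted p under 0.05, open circles were not called, and the triangle is a lower bound for a gene with 0 reads in B46. Class B, C and D, E and AGL6 genes lie mostly above 0, and all 4 SVP-class genes lie below.

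Genes known to act upstream of class B, or beside it, gave mixed values. Of 10 listed, 9 were tested, and 3 rose, 0 fell and 6 were not called (median 1.04). Without A12 replicate 3, B46 replicate 1 or B46 replicate 2, 1 rose, where 0.8%, 1.17% and 0.785% of all genes tested did. Of a pair annotated as LEAFY homologs (rice FL), which activate class B genes in Arabidopsis, Zm00004b006425 had a mean of 132 ± 17.6 CPM in B46 and of 72.5 ± 22.4 in A12 (SD, n = 3; log2 fold change -0.86 with SE 0.23, adjusted p = 0.058 by edgeR; DESeq2 adjusted p = 0.0036). Its partner Zm00004b040210 had a log2 fold change of -0.75 (SE 0.33, adjusted p = 0.20 by edgeR). The genes annotated as APO1, the rice relative of the LEAFY cofactor UFO, had log2 fold changes of 2.11 (Zm00004b029414, SE 0.87, adjusted p = 0.17 in edgeR) and -1.33 (Zm00004b033183, SE 0.83, adjusted p = 0.35 in edgeR).

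STAMENLESS 1 is a zinc finger protein that is needed for MADS16 expression in rice. The gene of that name on chromosome 8, Zm00004b024853, had 4, 3 and 0 reads in the B46 libraries and 37, 15 and 16 in those of A12 (log2 fold change 3.28 with SE 0.78, adjusted p = 0.042 by edgeR), and its call was lost without A12 replicate 3 or any B46 replicate (adjusted p 0.0699 to 0.162). The other, Zm00004b016257 on chromosome 3, had 74, 61 and 77 reads in B46, compared with 49, 92 and 101 in A12 (log2 fold change 0.25 with SE 0.29, adjusted p = 0.63 by edgeR).

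DROOPING LEAF is a YABBY factor that sets carpel identity in rice and acts against class B there. Zm00004b000788 had 77, 132 and 298 reads in the B46 libraries and 1785, 689 and 1032 in those of A12 (log2 fold change 2.85 with SE 0.53, adjusted p = 0.019 by edgeR). It was thus highest in A12 replicate 1, as the class B genes were. Its adjusted p was 0.0724, 0.0594 and 0.106 without A12 replicate 3, B46 replicate 1 and B46 replicate 2. The other copy, Zm00004b034171, had a log2 fold change of 1.04 (SE 0.53, adjusted p = 0.25 by edgeR; 1.92 and 0.0338 without B46 replicate 3). FZP (Zm00004b037561), which gives spikelets their floral fate, rose by 6.10 (SE 0.28, adjusted p = 0.00019 in edgeR). It had 298, 278 and 302 reads in A12, which were nearly even.

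The genes next to the members on the chromosome were compared to see whether a wider stretch differed. Beside the chromosome 3 PISTILLATA-type gene, at 4682 bases, the amino acid permease gene Zm00004b018237 had 5, 8 and 4 reads in the B46 libraries and 71, 96 and 82 in those of A12 (log2 fold change 3.91 with SE 0.34, adjusted p = 0.0015 by edgeR). A gene of the same name, Zm00004b026162, also adjoins the chromosome 8 pair, with 26, 17 and 77 reads in B46 libraries and 112, 12 and 47 in A12 libraries (log2 fold change 0.57 with SE 0.81, adjusted p = 0.70 by edgeR). The SHORT INTERNODES-like gene Zm00004b029255, 52400 bases from the APETALA3-type gene, rose by 1.62 (SE 0.26, adjusted p = 0.012 in edgeR; 0.0697 without A12 replicate 3 and 0.0527 without B46 replicate 1). Beside the B-sister gene, Zm00004b029409, of the BTB/POZ family, had a log2 fold change of -1.76 (SE 0.35, adjusted p = 0.023 by edgeR) and Zm00004b029411, an NF-Y subunit, of 0.41 (SE 0.09, adjusted p = 0.039 in edgeR). Both calls were lost without B46 replicate 2, at 0.124 and 0.176, and in several other analyses. Of the 6 tested genes beside a member that are not members, 3 were thus called higher and 1 lower, where 4.61% and 5.25% of all genes tested were.

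Over the 6 libraries, pairs of the 4 tested members had a Pearson correlation of log2 CPM of 0.944 to 0.987. The points include the gap between lines and share libraries and depth, so this is a description. The genes closest to the members' mean profile were annotated as ELF4-LIKE 4 (Zm00004b035892), cyclin P4-1 (Zm00004b014568), the amino acid transporter AVT1C (Zm00004b029721), ACC oxidase 1 (Zm00004b026959) and RICE FLOWERING LOCUS T 1 (Zm00004b025155), with correlations of 0.9984, 0.9983, 0.9981, 0.9975 and 0.9975. ACC oxidase 1 makes ethylene, and RICE FLOWERING LOCUS T 1 is a rice flowering signal. Zm00004b025155 had 11, 20 and 15 reads in the B46 libraries and 237, 77 and 127 in those of A12. Zm00004b026959 had 116, 142 and 123 reads in the B46 libraries and 2430, 643 and 1261 in those of A12. These genes were chosen for their likeness over the same 6 libraries, so the order of their A12 libraries follows from the choice.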

How the data were processed

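Per gene, the authors deposited unnormalized whole-number counts of reads together with FPKM. Dividing a count by its gene's length and by a library constant returned the FPKM the authors deposited. The constant was 0.962 to 1.02 times the total count. The submitters' processing notes name HISAT2 2.0.5 together with DESeq2 1.20.0. No build, read counter or strand setting is stated for them, and coordinates are as the table lists them. Groups and replicate numbers came from the titles.

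The whole table was fitted in R 4.3.3 with edgeR 4.0.16 (default expression filter, TMM scaling, quasi-likelihood F-test, two-sided, no covariate, Benjamini-Hochberg adjustment over 22741 genes, threshold 0.05). SE is the log2 fold change divided by the square root of F. Alternatives used DESeq2 1.42.0, other scalings, no filter, a replicate block, limma 3.58.1 on log2(FPKM + 0.1) or log2(FPKM + 1) with a mean of at least 0.5 or unfiltered, and each library left out. The procedure was checked on simulated counts. A gene at 0 reads in a line was set at a floor of 3 counts per library.

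Members, lists and named genes were chosen with earlier results of these data known. Named were all members, up to 2 called genes of lowest adjusted p per list, all tested genes of the list of class B regulators, the 5 genes of highest correlation (log2 CPM, prior count 2) with the members' mean, a tissue marker, and, added after their values were seen, adjoining genes, the shares of copies and B-sister names outside the rule. The supplied reference table shared 0 identifiers with the files. No member's sequence was used here. Replicates within a line differed beyond sampling noise (chi-square per degree of freedom 3.02 to 41.8).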

Additional observations from a re-analysis of the deposited data

How the results depend on the processing

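Of 14 alternatives, the class B members called stayed at 4 in the 8 that keep all libraries, except at 3 with a pseudocount of 1 on FPKM, where Zm00004b026163 had a difference of 2.56 (limma adjusted p = 0.0986). Without A12 replicate 3, B46 replicate 1 and B46 replicate 3, 2 were called, and without B46 replicate 2, 1 was. Leaving out each library gave 1 to 4 members called (against 0.785% to 10.4% of all genes called as higher), 401 to 4446 genes called over all genes and 10 to 24 called in the other floral lists. Over these, log2 fold changes were 1.17 to 1.59 for Zm00004b018236, 5.40 to 8.08 for Zm00004b026163, 5.75 to 7.89 for Zm00004b026164 and 5.78 to 6.71 for Zm00004b029254, so each kept its direction. The chromosome 8 neighbour Zm00004b026162 changed sign, to -0.40, without A12 replicate 1, and ranged from -0.40 to 1.46 over the libraries left out. Over all genes, DESeq2 called 3506, against 2242 by edgeR. The difference in share of the chromosome 8 copies was 34.5 percentage points, 31.9 on FPKM and 23.7 to 46.1 with a library left out. The cause of these changes was not tested.

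With the replicate number as a replicate block, 967 genes were called. These were 1.89% of all genes tested as higher and 2.36% as lower, and all 4 class B genes were among the higher ones. The calls of STAMENLESS 1 (Zm00004b024853), RA3 (Zm00004b037360), Zm00004b029409 and Zm00004b029411 were lost, with adjusted p = 0.0654, 0.0879, 0.0719 and 0.0874 in edgeR. The numbers did not pair the libraries, since deviations from the line mean correlated at -0.12, -0.01 and 0.01 for same-numbered libraries, and no library correlated best with its own number. Fewer than 15 reads in A12 replicate 2 for Zm00004b026163, and under 10 in all libraries for the B-sister gene, limit what their values can show.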
